A study of Mus musculus with 9 samples.

Results

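The genes followed here, in mouse gastrocnemius muscle, belong to the integrated stress response and to the response to stress of the endoplasmic reticulum (ER). They were Atf4, Ddit3, Trib3, Chac1, Asns, Fgf21, Gdf15, Hspa5, Xbp1 and Herpud1, taken by symbol from a table of 56791 genes, and all 10 were found once and passed the filter on low counts that left 17534 genes for testing. The 9 libraries came from female mice in 3 groups of 3. Young mice received vehicle (saline), aged mice received vehicle, and further aged mice received ginkgolide B (GB), a terpene lactone of the ginkgo tree, at 12 mg per kg body weight. All groups were dosed each day by oral gavage for 2 months, so the gavage is common to them. The vehicle titles carry 3M for young and 23M for aged libraries, and the GB titles carry no age beyond the label aged. Whether each library stands for its own animal is not in the labels. The p-values therefore cover only how far these libraries spread, and that spread may be technical.

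Cells lower overall translation when eIF2 is phosphorylated by one of its kinases, each of which answers to a different stress, and translation of Atf4 then rises. The Atf4 protein, with its partner Ddit3 (CHOP), switches on genes for amino acid supply and for the brake on the response. In ER stress the sensors PERK (Eif2ak3), IRE1 (Ern1) and ATF6 (Atf6) raise chaperones such as Hspa5 (BiP) and the machinery that removes misfolded proteins, to which Herpud1 belongs, and IRE1 splices the Xbp1 message. In muscle under mitochondrial or nutrient stress the same response can release the hormones Fgf21 and Gdf15. Gene counts show neither the translation of Atf4 nor the splicing of Xbp1.

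The promoter windows of 5 members are printed because they hold letters known from these pathways. Each is the 250 bases before the RefSeq start on GRCm38.p6, 5′ to 3′ on the strand of the gene. Capitals mark matches to 3 motifs on either strand. These are the C/EBP-ATF element TGATGNAA, the ER stress element (ERSE), which is CCAAT, any 9 bases and CCACG, and ERSE-II, which is ATTGG, any 1 base and CCACG.
Hspa5 (chr2:34771840-34772089, plus strand): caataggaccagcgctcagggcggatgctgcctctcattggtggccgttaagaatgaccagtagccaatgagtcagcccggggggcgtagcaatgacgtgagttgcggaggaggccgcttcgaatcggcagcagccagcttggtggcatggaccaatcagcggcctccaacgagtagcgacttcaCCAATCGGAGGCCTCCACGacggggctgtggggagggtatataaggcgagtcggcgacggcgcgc
Herpud1 (chr8:94386179-94386428, plus strand): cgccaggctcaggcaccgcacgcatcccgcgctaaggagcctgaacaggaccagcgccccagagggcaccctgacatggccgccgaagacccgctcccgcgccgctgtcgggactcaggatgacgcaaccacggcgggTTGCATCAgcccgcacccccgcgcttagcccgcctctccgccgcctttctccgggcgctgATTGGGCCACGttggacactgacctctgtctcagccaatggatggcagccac
Chac1 (chr2:119350992-119351241, plus strand): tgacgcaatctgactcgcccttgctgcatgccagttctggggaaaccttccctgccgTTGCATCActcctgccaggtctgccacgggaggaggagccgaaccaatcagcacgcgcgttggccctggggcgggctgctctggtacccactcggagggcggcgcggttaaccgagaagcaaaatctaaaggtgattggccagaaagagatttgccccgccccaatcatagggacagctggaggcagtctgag
Asns (chr6:7693210-7693459, minus strand): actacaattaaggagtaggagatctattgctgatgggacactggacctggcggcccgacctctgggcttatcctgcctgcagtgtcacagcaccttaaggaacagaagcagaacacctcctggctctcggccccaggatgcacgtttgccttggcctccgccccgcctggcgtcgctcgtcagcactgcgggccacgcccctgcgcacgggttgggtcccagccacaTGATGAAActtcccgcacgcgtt
Fgf21 (chr7:45615491-45615740, minus strand): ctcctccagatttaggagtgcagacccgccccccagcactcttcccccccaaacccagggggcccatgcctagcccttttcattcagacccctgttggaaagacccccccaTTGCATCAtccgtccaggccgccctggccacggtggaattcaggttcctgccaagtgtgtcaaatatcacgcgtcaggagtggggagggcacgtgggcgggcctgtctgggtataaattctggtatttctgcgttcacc
All 10 members matched at least 1 window by symbol, 11 windows in all since Gdf15 has a pair of starts. The C/EBP-ATF element was found in the windows of Chac1, Asns, Fgf21 and Herpud1 and in 3.45% of all 32851 windows of this length. The ERSE was found for Hspa5, 65 to 47 bases before the start, and in 0.113% of all windows, and ERSE-II for Herpud1, 52 to 42 bases before the start, and in 0.0304%. The 3 motifs were searched on both strands, and no match of one overlapped a match of another in these windows. Of the members whose windows hold a C/EBP-ATF element, Herpud1 rose with GB against aged vehicle, while Chac1, Asns and Fgf21 did not pass edgeR's test in that comparison. Chac1 passed it in DESeq2 and limma-voom, and Chac1 and Fgf21 passed in edgeR against young vehicle. A match is a description of letters and shows no binding.

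Depth and composition differed between groups. The totals ran from 51543383 to 61680520 counts under vehicle and from 39478427 to 44294097 with GB, and mitochondrially encoded genes took 24.3 to 26.1% of counts with GB against 8.6 to 15.3% with vehicle. The GB libraries had a count for 18678 to 19362 genes and the vehicle libraries for 22616 to 24185. Short genes were higher and long genes lower with GB, with a median log2 fold change against aged vehicle of 0.88 for genes of up to 1000 bases and -0.46 for genes over 5000 bases. Within each group replicate 1 lay farther from replicates 2 and 3 than those lay from each other, with a chi-square per degree of freedom between libraries of 33.5 to 60.4 against 16.6 to 18.7. Skeletal muscle markers (Ckm, Acta1, Ttn, Mylpf, Tnnt3 and Myh4) summed to 117694 to 129284 CPM in young, 81905 to 94483 CPM in aged vehicle and 139105 to 162174 CPM in GB libraries. These markers did not move alike. Their log2 fold changes with GB against aged vehicle were 1.76 for Mylpf, 1.33 for Tnnt3 and 1.23 for Acta1. Myh4 was at 0.19, Ckm at -0.12 and Ttn at -0.46. CPM are counts scaled to a common library size with TMM factors, which correct for composition. In this tissue, fewer cells of a type and less RNA per cell cannot be told apart.

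The members spanned a wide range of levels. Per length, as CPM per kilobase (RPKM), Atf4 was highest in young libraries at 53.5 ± 1.42 RPKM (SD, n = 3), followed by Herpud1 at 46.7 ± 2.34, Hspa5 at 38.1 ± 1.78 and Xbp1 at 28.6 ± 4.73 RPKM, and the libraries of these 4 did not overlap from one to the next. Chac1, at 24.4 ± 6.13 RPKM, overlapped Xbp1, and Ddit3 lay lower at 7.59 ± 1.08 RPKM. Asns and Trib3, at 0.672 ± 0.153 and 0.668 ± 0.165 RPKM, could not be ranked. Gdf15 and Fgf21 were close to the limit of detection in every group. In aged vehicle libraries Atf4, Herpud1, Hspa5 and Chac1 overlapped one with the next, and Hspa5 was at 41.2 ± 8.11 RPKM. In GB libraries Herpud1 and Atf4 led at 118 ± 5.34 and 116 ± 6.34 RPKM and overlapped. Chac1 came next in GB libraries at 52.3 ± 7.9997 RPKM, above Hspa5 at 25.7 ± 6.79 RPKM with no overlap. The plot of CPM by library shows the GB libraries apart from both vehicle groups for Atf4, Ddit3, Trib3, Hspa5, Xbp1 and Herpud1.

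**Figure D1:**
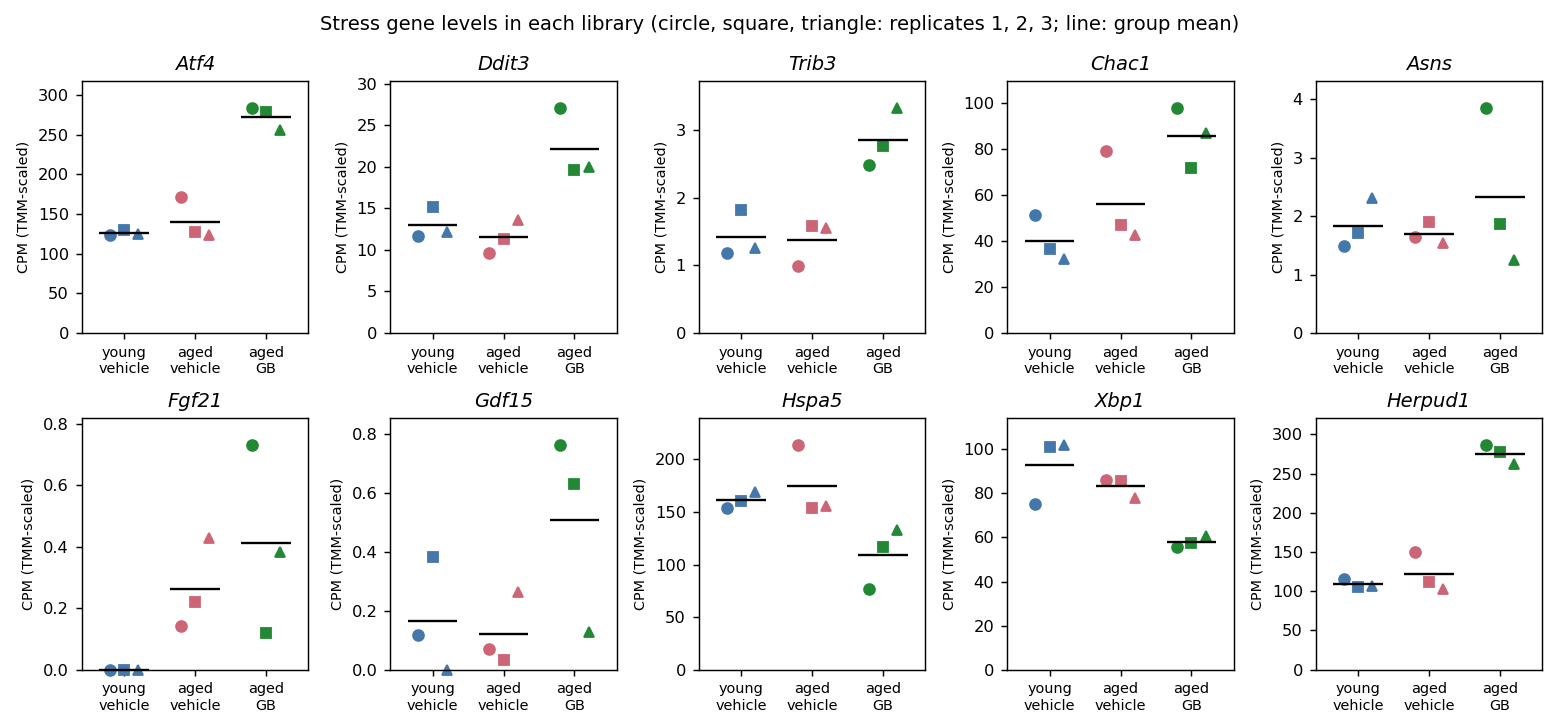
Level of each of the 10 genes as TMM-scaled CPM (vertical axis, linear from 0) in each of the 9 libraries by group, with symbols for replicates 1, 2 and 3 and a line at the group mean. Atf4 and Herpud1 reached 256 to 287 CPM with GB and 103 to 171 CPM with vehicle, while Xbp1 was at 55.9 to 60.8 CPM with GB and at 75.1 CPM or more with vehicle.

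The first comparison of the series design set aged against young vehicle libraries. Of the 10 members 1 was called with age in edgeR's quasi-likelihood test, where 8.6% of all genes tested were called, 4.32% higher and 4.28% lower. Fgf21 was the one, and it rose. With 0 counts in the young libraries, Fgf21 passed the filter on low counts only through aged vehicle and GB libraries. In the fit with only the 2 groups compared it was not tested. The libraries of the groups did not overlap for 1 of 10 members, against 34.4% of all genes. The median log2 fold change of the members was 0.04, beside 0.00 over all genes tested.

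Among the transcription factors, Atf4 was at 123, 130 and 125 CPM in young replicates 1 to 3 and at 171, 127 and 123 CPM in aged vehicle replicates 1 to 3. The groups overlapped, and only aged replicate 1 lay above the young range. The log2 fold change was 0.15 (SE 0.11, 95% interval -0.09 to 0.40, edgeR adjusted p = 0.477). Ddit3, the pro-apoptotic factor CHOP, had 11.7, 15.1 and 12.2 CPM in young and 9.64, 11.3 and 13.6 CPM in aged libraries, a log2 fold change of -0.18 (95% interval -0.54 to 0.19). Trib3, a pseudokinase that feeds back on Atf4 and Ddit3, had 1.18, 1.82 and 1.25 CPM in young and 0.985, 1.58 and 1.56 CPM in aged libraries, a log2 fold change of -0.04 (95% interval -0.72 to 0.63). All 3 genes overlapped between the ages.

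Chac1, which degrades glutathione, had the highest log2 fold change with age among the members that were not called, at 0.49 (SE 0.26, 95% interval -0.09 to 1.07, edgeR adjusted p = 0.304). Its level was 51.3, 36.6 and 32.1 CPM in young and 79.1, 46.8 and 42.8 CPM in aged libraries. Replicate 1 was the highest of its group at both ages. Asns, which makes asparagine, had 1.49, 1.72 and 2.30 CPM in young and 1.64, 1.89 and 1.54 CPM in aged libraries, within one range. Its interval of the log2 fold change was wide, -0.95 to 0.71.

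Fgf21, a hormone of fasting and mitochondrial stress, had 0 counts in all 3 young libraries and 8, 14 and 26 counts in aged vehicle replicates 1 to 3. Against a limit of 3 counts over the young group, its 0.265 CPM pooled over the aged libraries was at least 17.2-fold higher (edgeR adjusted p = 0.016). The call was lost without young vehicle replicate 2 (adjusted p = 0.0521), young vehicle replicate 3 (0.0608) or aged vehicle replicate 3 (0.0651), and among alternatives in which Fgf21 was tested it ranged from 0.000318 to 0.0651. Liver markers (Alb, Apoa1 and Ttr), of an organ that makes Fgf21, summed to 70.6 CPM in young replicate 1 and to 0.131 to 0.403 CPM in the other 5 vehicle libraries, and Fgf21 had no count in young replicate 1. Gdf15, a hormone that lowers appetite, had 8, 22 and 0 counts in young and 4, 2 and 16 counts in aged libraries. Its difference was not detectable at this depth (95% interval of the log2 fold change -2.99 to 2.14).

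The ER genes overlapped between the ages. Hspa5, the main ER chaperone and the brake on the sensors, was at 154, 161 and 169 CPM in young and at 214, 154 and 155 CPM in aged vehicle libraries. Its log2 fold change was 0.11 (95% interval -0.30 to 0.52). Herpud1 had 115, 106 and 106 CPM in young and 150, 112 and 103 CPM in aged libraries, a log2 fold change of 0.16 (95% interval -0.10 to 0.42). Xbp1, a transcription factor for chaperones and ER-associated degradation, had 75.1, 101 and 102 CPM in young and 86.1, 85.7 and 78.1 CPM in aged libraries, a log2 fold change of -0.16 (95% interval -0.40 to 0.09).

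Aged vehicle replicate 1 held the highest Atf4, Chac1, Hspa5 and Herpud1 and the lowest Ddit3 and Trib3 of its group. Without that library the log2 fold changes with age were -0.01 for Atf4, -0.06 for Hspa5 and -0.02 for Herpud1, and 0.15 for Trib3. No member was called with it left out except Fgf21.

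The second comparison of the series design set aged GB against aged vehicle libraries. Atf4, Ddit3, Trib3 and Herpud1 rose and Hspa5 and Xbp1 fell, so that 6 of 10 members were called, 4 higher and 2 lower. The count stands beside 53.2% of all genes called in this comparison, 24.4% higher and 28.8% lower, so a share of 60% is near the background. The libraries did not overlap for 6 of 10 members, against 59.7% of all genes. The members' median log2 fold change was 0.79, beside -0.05 over all genes. The set of all genes includes those over 5000 bases, with a median of -0.46, and no member is longer than 4229 bases. Medians by length were 0.88 up to 1000 bases, 0.64 for the class up to 2000 and 0.30 for the class up to 3000 bases. Hspa5 and Xbp1, the only members below 0, were also the only ones over 3000 bases. The part of gene length in the members' median was not tested. No batch is named in the labels. The differences in depth and composition run along the groups, so they and the treatment cannot be told apart.

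Atf4 was at 284, 279 and 256 CPM in GB replicates 1 to 3, above all 3 aged vehicle libraries. Its log2 fold change was 0.96 (SE 0.11, edgeR adjusted p = 1.54e-05), a fold of 1.94. Ddit3 had 27.1, 19.6 and 19.96 CPM with GB, also above the aged vehicle range of 9.64 to 13.6 CPM, with a rise of 0.95 on the log2 scale (SE 0.17, edgeR adjusted p = 0.000475). Exons of Ddit3 and of Mars1, a tRNA synthetase gene on the other strand, share 68 bases in the GENCODE M21 annotation, and without knowledge of strand in the counting their reads there cannot be told apart. Mars1 fell by 0.32 on the log2 scale with GB (SE 0.09). The part of shared reads in the Ddit3 value was not tested. Trib3 had 2.48, 2.76 and 3.33 CPM with GB against 0.985 to 1.58 CPM in aged vehicle libraries, and rose by 1.05 on the log2 scale (SE 0.31, edgeR adjusted p = 0.0132). The Trib3 call was lost without aged vehicle replicate 1 (log2 fold change 0.85, adjusted p = 0.053). Among the alternatives its adjusted p ranged from 0.0021 to 0.223.

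The amino acid and glutathione enzymes were not called by edgeR, although Chac1 was by other tools. Chac1 had 97.9, 71.9 and 87.2 CPM with GB and overlapped aged vehicle replicate 1, with a log2 fold change of 0.61 (SE 0.26, 95% interval 0.03 to 1.19, edgeR adjusted p = 0.0743). Chac1 was called by DESeq2 (0.61, adjusted p = 0.0194) and limma-voom (0.65, adjusted p = 0.0280), and in all by 8 of 22 alternatives. Among these were edgeR fits without aged vehicle replicate 1 (0.92, adjusted p = 0.00275) and without young vehicle replicate 1 (0.60, adjusted p = 0.0388), and its adjusted p ranged from 0.0020 to 0.997 among the alternatives. Asns had 3.85, 1.86 and 1.25 CPM with GB, so that GB replicate 1 lay above and GB replicate 3 below all aged vehicle libraries. Its log2 fold change was 0.45 (95% interval -0.39 to 1.29), and -0.13 without GB replicate 1.

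The hormone genes had few counts. Fgf21 had 23, 4 and 12 counts in GB libraries, and its 95% interval of the log2 fold change was -1.25 to 2.53. The liver markers summed to 2.54, 5.40 and 1.98 CPM in GB replicates 1 to 3, above the 0.131 to 0.268 CPM of the aged vehicle libraries, and their part in the hormone values was not tested. Gdf15 had 24, 21 and 4 counts with GB against 4, 2 and 16 with aged vehicle. Its log2 fold change of 2.04 had an interval of -0.53 to 4.61, and the libraries overlapped, so a difference was not detectable at this depth.

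Herpud1 had the smallest adjusted p of the members. It was at 287, 277 and 262 CPM with GB against 103 to 150 CPM in aged vehicle libraries, a fold of 2.26 (log2 1.18, SE 0.12, edgeR adjusted p = 4.07e-06). Hspa5 went the other way, with 76.7, 117 and 132 CPM with GB against 154 to 214 CPM. It fell by 0.68 on the log2 scale (SE 0.19, edgeR adjusted p = 0.0105). Xbp1 had 55.9, 57.3 and 60.8 CPM with GB, below the aged vehicle range of 78.1 to 86.1 CPM, and fell by 0.52 (SE 0.11, edgeR adjusted p = 0.00187). The plot of fold changes sets the 3 comparisons side by side.

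**Figure D2:**
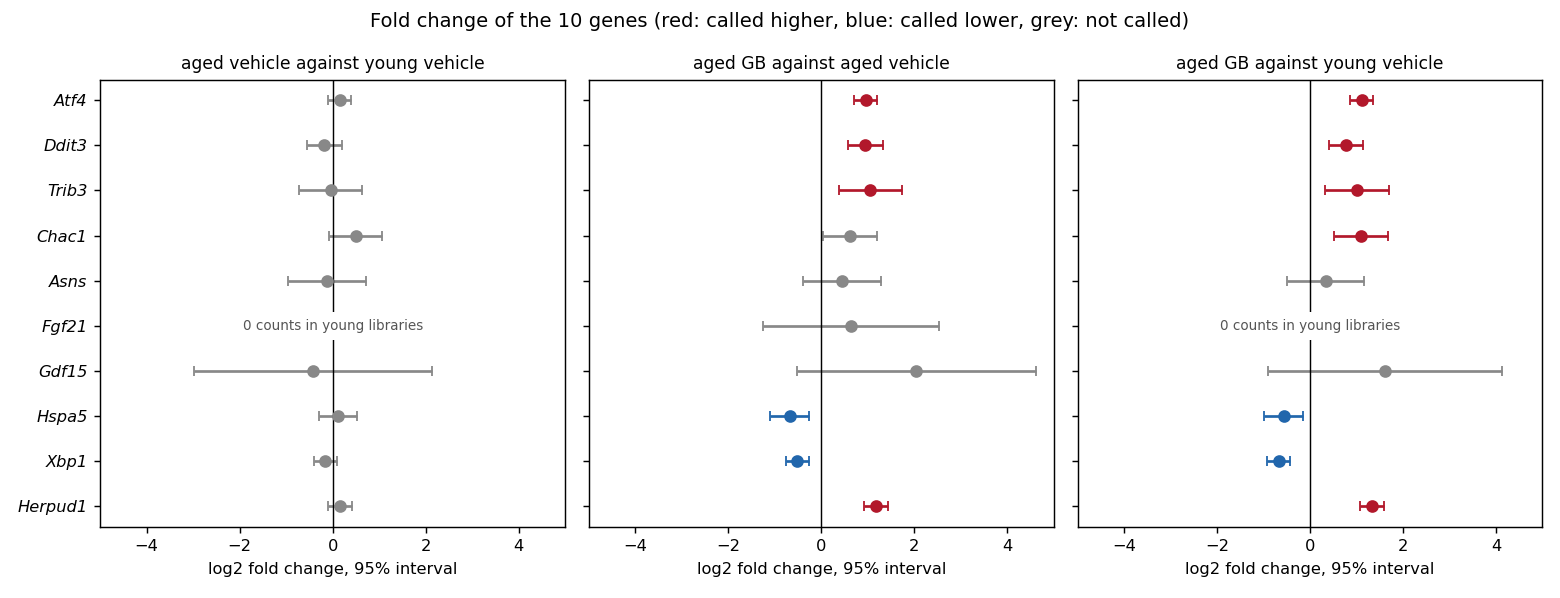
Log2 fold change of each gene (horizontal axis) with its 95% interval from the edgeR fit, in panels for the 3 comparisons, in red where called higher, blue where called lower and grey where not called. With GB against aged vehicle, Atf4, Ddit3, Trib3 and Herpud1 lay between 0.95 and 1.18, and Hspa5 and Xbp1 at -0.68 and -0.52. Fgf21 is not drawn against young libraries, which had 0 counts.

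The size of the rises depended on the scale. With library totals in place of TMM factors the median over all genes went from -0.05 to -0.62, and the log2 fold changes were 0.40 for Atf4, 0.62 for Herpud1, 0.38 for Ddit3 and 0.47 for Trib3, of which Atf4 and Herpud1 were still called. Hspa5 and Xbp1 were then at -1.25 and -1.09. With an offset for each library's trend on gene length, Atf4 was at 0.60, Herpud1 at 0.81, Hspa5 at -0.63 and Xbp1 at -0.64, all called, while Ddit3 at 0.37 and Trib3 at 0.62 were not. Hspa5 (4229 bases) and Xbp1 (3248 bases) are longer than Atf4 (2358 bases) and Herpud1 (2333 bases). Genes over 2000 and up to 3000 bases had a median of 0.30, and those over 3000 and up to 5000 bases a median of -0.01. All values of these 4 genes kept their direction in the alternatives run.

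**Figure D3:**
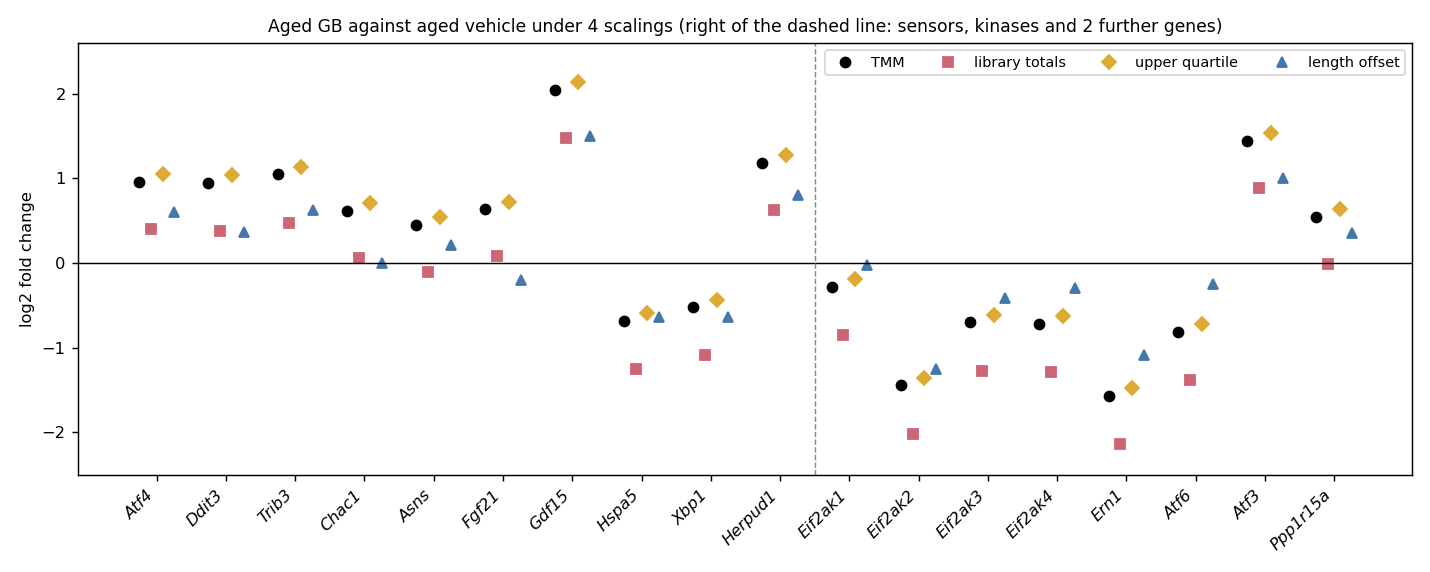
Log2 fold change of aged GB against aged vehicle (vertical axis) for the 10 genes and 8 further stress genes under TMM factors, library totals, upper-quartile factors and an offset for gene length. Atf4, Herpud1 and Atf3 stayed above 0 and Hspa5, Xbp1, Eif2ak2 and Ern1 stayed below 0 under all 4 scalings, while Chac1, Asns, Fgf21 and Ppp1r15a lay at or on both sides of 0.

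Ratios of counts within a library need no scaling between libraries. They were computed after the values had been seen. Atf4 to Hspa5 was 0.801, 0.807 and 0.741 in young, 0.799, 0.826 and 0.792 in aged vehicle and 3.70, 2.39 and 1.93 in GB replicates 1 to 3. Herpud1 to Hspa5 was 0.628 to 0.749 in young, 0.664 to 0.730 in aged vehicle and 1.98 to 3.74 in GB libraries. Both ratios were within a narrow range over the 6 vehicle libraries and higher in each GB library. Aged vehicle replicate 1, in which Atf4 and Hspa5 were each the highest of the group, had the ratio of the others. Herpud1 to Atf4, a pair of nearly equal length, was 0.814 to 0.936 in young, 0.839 to 0.884 in aged vehicle and 0.995 to 1.03 in GB libraries. Xbp1 to Hspa5 was 0.488 to 0.630 in young, 0.403 to 0.558 in aged vehicle and 0.459 to 0.729 in GB libraries, which overlap. A ratio shows unequal change and does not say which gene changed. It also keeps any shift of counts with gene length. Hspa5, at 4229 bases, is longer than Atf4 and Herpud1, at 2358 and 2333 bases. The part of length in the ratios to Hspa5 was not tested.

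**Figure D4:**
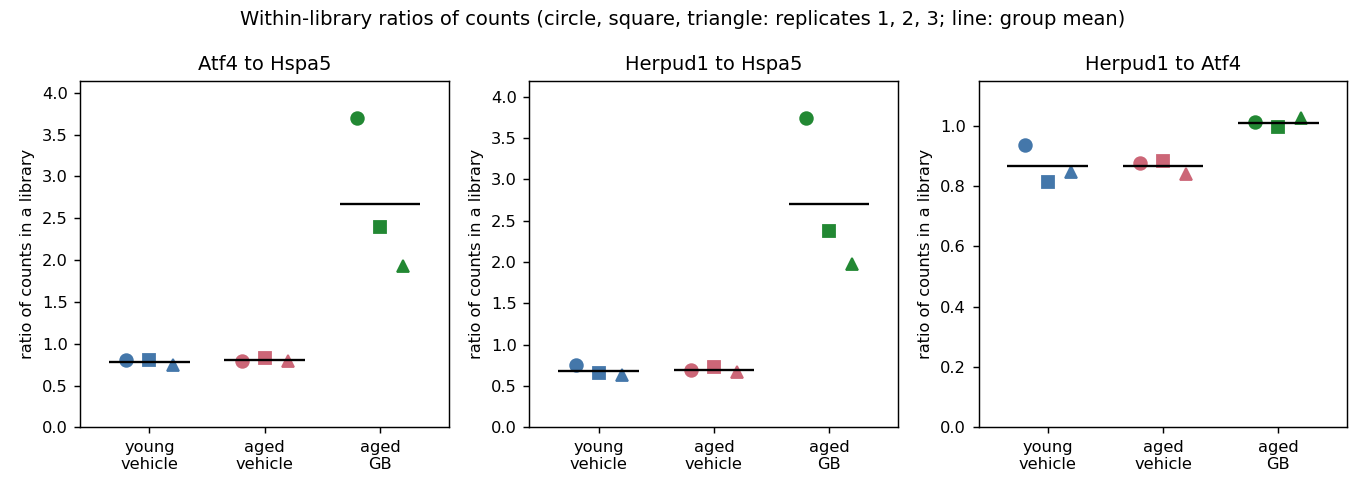
Ratio of raw counts within each library (vertical axis, linear from 0) for Atf4 to Hspa5, Herpud1 to Hspa5 and Herpud1 to Atf4, with symbols for replicates 1, 2 and 3 and a line at the group mean. The ratios to Hspa5 lay at 0.628 to 0.826 under vehicle and at 1.93 to 3.74 with GB.

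Aged GB libraries were also set beside the young ones. This comparison shares its GB libraries with the second and its young libraries with the first, so the values are given side by side only. Of the 10 members 6 were higher and 2 lower, against 53.6% of all genes called, 24.7% higher and 29% lower, and 8 of 10 had libraries that did not overlap, against 60.7% of all genes. Both counts include Fgf21, which had 0 counts in young libraries and passed the filter on low counts only through aged vehicle and GB libraries. In the fit with only the 2 groups compared Fgf21 was not tested, and 5 members were higher and 2 lower. Atf4 had a log2 fold change of 1.11 (SE 0.11) against young and 0.96 against aged vehicle. Herpud1 had 1.34 (SE 0.12) and 1.18, Ddit3 0.77 (SE 0.17) and 0.95, and Trib3 1.01 (SE 0.31) and 1.05 in the same order. Chac1 was called against young libraries, at 1.10 (SE 0.26, edgeR adjusted p = 0.00585). Hspa5 was at -0.57 (SE 0.19, edgeR adjusted p = 0.0248) and Xbp1 at -0.68 (SE 0.11). With a limit of 3 counts over the young group, Fgf21 pooled over the GB libraries (0.406 CPM) was at least 26.4-fold higher than in young libraries. Its counts in GB replicates 1 to 3 were 23, 4 and 12. Beside this, liver markers were at 1.98 to 5.40 CPM with GB and, in young replicates 1 to 3, at 70.6, 0.347 and 0.403 CPM. Asns and Gdf15 were not called by edgeR. The calls of Chac1 and Ddit3 were lost with library totals (0.54 and 0.22, adjusted p = 0.085 and 0.322) and with the length offset (0.52 and 0.22, adjusted p = 0.155 and 0.245). Trib3 was also not called under either of these scalings, nor Hspa5 with the length offset or no filter on low counts. The Trib3 call was lost without young vehicle replicate 1, young vehicle replicate 3 or GB replicate 3 (adjusted p = 0.0561, 0.0665 and 0.0505), and the Hspa5 call without young vehicle replicate 2 or 3 (0.0547 and 0.0663). Among the alternatives the adjusted p ranged from 0.00293 to 0.241 for Trib3 and from 8.2e-05 to 0.081 for Hspa5.

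Across the 9 libraries, the gene whose log2 CPM was most like that of Atf4 was another member, Herpud1 (Pearson's r = 0.995, Spearman's rho = 0.85, of 10337 genes with at least 2 CPM in each group). Ube2j2 (r = 0.994), Rtn4 (0.992) and Nsmce4a (0.991) followed. Among the genes most like Hspa5 were Slu7 (0.984), Txndc16 (0.982) and Rbm20 (0.976). These are descriptions over libraries in which the 3 GB libraries stand apart.

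The other genes of these pathways were counted in 9 lists of 115 genes, of which 113 were tested. With age 5 were higher and 5 lower, a share of 8.85% called beside 8.6% of all genes. That count of 10 was 4 without young vehicle replicate 2 or aged vehicle replicate 3, 5 without young vehicle replicate 3 and 16 without GB replicate 1. With GB against aged vehicle 35 rose and 37 fell, a share of 63.7% beside 53.2%. With library totals the GB split was 13 higher and 61 lower. The counts of single lists given below stand beside the shares over all genes. These shares were 8.6% with age and 53.2% with GB against aged vehicle, 24.4% higher and 28.8% lower. The plot of the pathway lists shows the spread within each list.

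**Figure D5:**
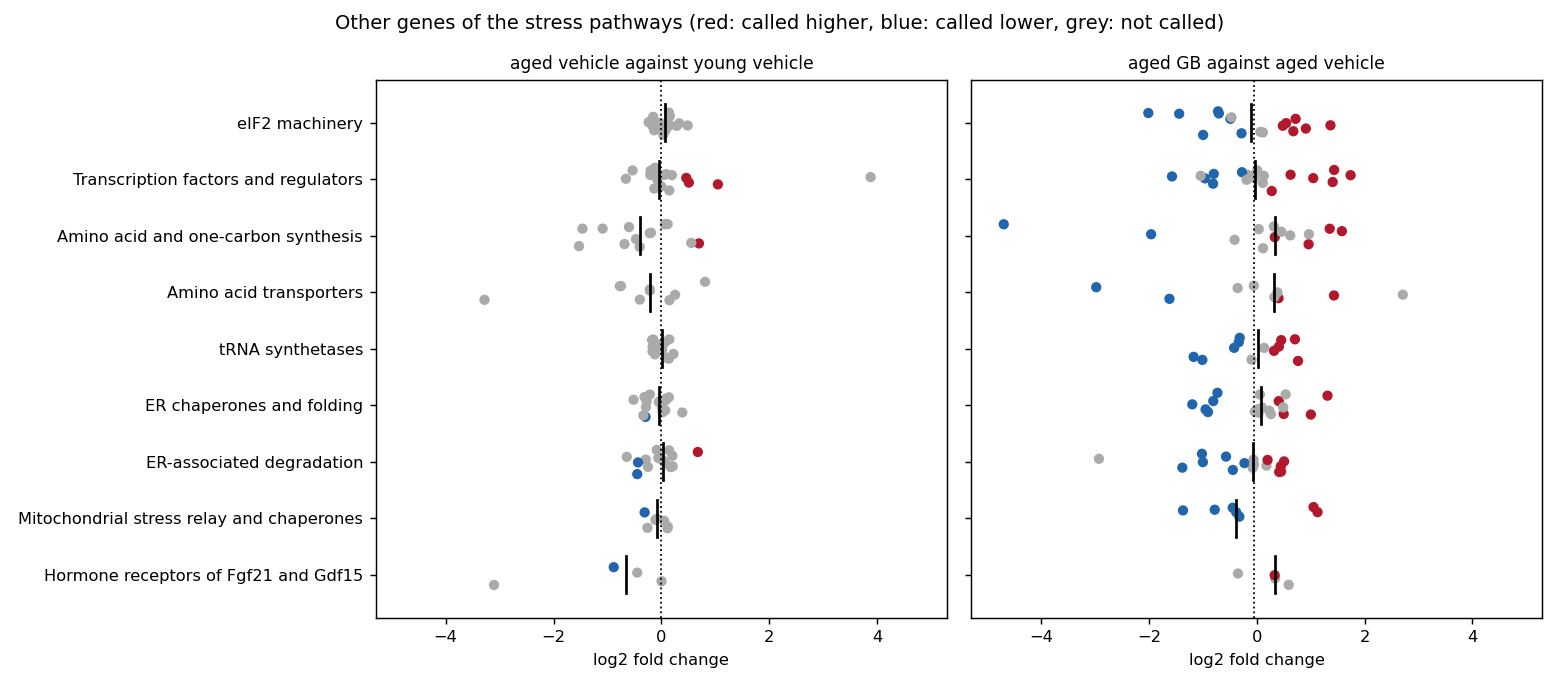
Log2 fold change (horizontal axis) of the tested genes of the 9 pathway lists, aged vehicle against young vehicle on the left and aged GB against aged vehicle on the right, in red where called higher, blue where called lower and grey where not called. Black bars are list medians and the dotted line is the median of all genes. With age 10 of 113 genes were called and with GB 72, in both directions in 8 of the 9 lists.

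Among genes of the eIF2 machinery, 0 of 16 passed edgeR's test with age, 1 had an unadjusted p under 0.05, and DESeq2 and limma-voom called 0 each, while 6 rose and 7 fell with GB. The 4 eIF2 kinases all fell with GB. Eif2ak2, the kinase of double-stranded RNA, had 4.91 to 7.32 CPM in aged vehicle and 1.65 to 3.36 CPM in GB libraries, which is -1.44 on the log2 scale (SE 0.26). Eif2ak3, the kinase of ER stress, was at -0.70 (SE 0.19), Eif2ak4, of amino acid shortage, at -0.72 (SE 0.21) and Eif2ak1, the kinase of heme shortage, at -0.28 (SE 0.09). These are long genes, and with the length offset only Eif2ak2 was called among them (-1.25), Eif2ak1 being at -0.02. The Eif2ak1 call was also lost without aged vehicle replicate 1 (adjusted p = 0.057) or GB replicate 3 (0.0534). The genes of eIF2B, the exchange factor that phosphorylated eIF2 blocks, rose at 5 of 5 members, although with library totals 2 of 5 were called and Eif2b3 was at -0.09. Eif2b1 had the largest rise of these 5, at 1.37 (SE 0.10). Eif2s3x, the X-linked gamma subunit of eIF2, fell by 2.01 (SE 0.11). Ppp1r15a (GADD34), the inducible subunit that removes the phosphate, was at 0.55 (SE 0.15), at -0.01 with library totals, and its call was lost without aged vehicle replicate 2 (adjusted p = 0.0516) or 3 (0.0522). The constitutive Ppp1r15b fell by 0.49 (SE 0.13), and was at -0.24 and not called with the length offset.

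Of 18 transcription factors and regulators 3 were called with age, all higher, and with GB 6 rose and 5 fell. Cebpb, a partner of Atf4 and Ddit3, was at 37.0 to 61.0 CPM in young, 86.9 to 117 CPM in aged vehicle and 194 to 215 CPM in GB libraries, and it rose by 1.05 (SE 0.17) with age and by 1.05 (SE 0.18) with GB. The GB value of Cebpb was 0.40 with the length offset and was not called. Nfe2l2, a regulator of antioxidant genes, and Vldlr, a lipoprotein receptor, had 0.51 and 0.46 with age. Both calls were lost when any of several libraries was left out, Nfe2l2 without young vehicle replicate 2 or 3 or aged vehicle replicate 2 or 3 (adjusted p of 0.0798 to 0.143) and Vldlr without young vehicle replicate 1 or 2 or aged vehicle replicate 1 or 3 (0.0591 to 0.0763). With GB, Atf3, a stress factor downstream of Atf4, rose from 5.55 to 10.3 CPM in aged vehicle to 19.4 to 24.3 CPM, a log2 fold change of 1.44 (SE 0.20). Nupr1, a stress-induced chromatin protein, rose by 1.74 (SE 0.24) and Atf5, which serves the mitochondrial stress response, by 0.63 (SE 0.16), the latter at 0.06 with library totals and 0.14 with the length offset, not called in either. The ER sensors went the other way. Ern1 was at 16.4 to 21.8 CPM in aged vehicle and 5.21 to 6.99 CPM in GB libraries, which is -1.57 on the log2 scale (SE 0.16), and Atf6 fell by 0.81 (SE 0.09), or by 0.25 with the length offset. Sesn2, a brake on mTORC1 signalling, was not called with GB.

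Enzymes of amino acid and one-carbon synthesis had 1 of 13 called with age by edgeR, and with GB 4 rose and 2 fell. With age 5 had an unadjusted p under 0.05, and DESeq2 and limma-voom called 3 each, 1 higher and 2 lower. The libraries of the ages did not overlap for 9 of 13, against 34.4% of all genes. The median log2 fold change of the list with age was -0.40, and 4 of 13 values were above 0. Got1, the cytosolic aspartate aminotransferase, rose by 0.70 (SE 0.09) with age and fell by 1.96 (SE 0.10) with GB. Phgdh, the first enzyme of serine synthesis, was at 2.70 to 3.07 CPM in aged vehicle and 4.61 to 10.8 CPM in GB libraries, which is 1.35 on the log2 scale (SE 0.27). Aldh1l2, a mitochondrial folate enzyme, had 2.32 to 3.03 CPM in aged vehicle libraries and no counts in GB replicates 1 and 3. Psat1 and Mthfd2, also known targets of Atf4, had 0.62 (SE 0.33) and 0.32 (SE 0.24) with GB and were not called. Of 9 amino acid transporters tested, 0 passed edgeR's test with age, where 3 had an unadjusted p under 0.05 and DESeq2 and limma-voom called 1 each. With GB 2 rose and 2 fell. Slc1a5, which carries glutamine, rose by 1.43 (SE 0.14), while the glycine transporter gene Slc6a9 and the arginine transporter gene Slc7a1 fell by 2.98 (SE 0.27) and 1.62 (SE 0.26). Of 12 tRNA synthetase genes 0 passed with age in edgeR, DESeq2 or limma-voom, and 1 had an unadjusted p under 0.05. The GB comparison had 5 higher and 5 lower, from Sars at 0.77 (SE 0.09) to Eprs at -1.01 (SE 0.10) and Iars at -1.17 (SE 0.17). Sars was at 0.20 with library totals and Eprs at -0.10 with the length offset, neither of them called.

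ER chaperones and folding enzymes were lower at 1 of 18 with age, and with GB 4 were higher and 5 lower, with a median log2 fold change of 0.08. Calr, a calcium-binding chaperone, fell by 0.29 (SE 0.07) with age, a call lost without young vehicle replicate 2 or 3 or any 1 aged vehicle library (adjusted p of 0.0528 to 0.111). With GB Calr rose by 0.41 (SE 0.07), and it was at -0.16 with library totals. Hsp90b1 (GRP94) and Dnajb9, both raised in ER stress, had 0.10 (SE 0.10) and 0.23 (SE 0.12) with GB and were not called, unlike Hspa5. Hyou1, an ER chaperone, fell by 1.20 (SE 0.13). Sil1, the exchange factor of Hspa5, and Manf, a secreted ER stress protein, rose by 1.31 (SE 0.10) and 1.00 (SE 0.11). In ER-associated degradation, the pathway of Herpud1, age had 1 of 16 genes higher and 2 lower, and GB 5 higher and 6 lower. Of the ubiquitin-conjugating enzymes of this pathway, Ube2j1 rose by 0.68 (SE 0.13) with age and Ube2g2 fell by 0.43 (SE 0.08). Selenos, which ties the machinery to the membrane, fell by 0.45 (SE 0.12) with age, a call lost without any 1 young library, aged vehicle replicate 2 or 3 or GB replicate 3 (adjusted p of 0.0521 to 0.177). Edem3, Sel1l and Edem1, which pick and pass on glycoproteins, fell with GB by 1.38 (SE 0.13), 1.02 (SE 0.11) and 1.00 (SE 0.19). Ube2j1, Ube2g2 and Selenos were called higher with GB, at 0.42, 0.51 and 0.45. With library totals these were at -0.15, -0.06 and -0.12, and none of them was called there or with the length offset.

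All 7 genes of the mitochondrial relay and chaperones were called with GB, 2 higher and 5 lower. Over all genes 53.2% were called in this comparison, 24.4% higher and 28.8% lower. Hspa9, the mitochondrial Hsp70, was at 413 to 450 CPM in aged vehicle and 159 to 178 CPM in GB libraries (log2 fold change -1.37, SE 0.07), while Hspe1, the small chaperonin, rose by 1.13 (SE 0.09) and the protease gene Clpp by 1.05 (SE 0.09). With age 1 of the 7 fell, Hspd1 by 0.31 (SE 0.07), a call lost without young vehicle replicate 2 or 3 or aged vehicle replicate 1 or 3 (adjusted p of 0.0628 to 0.0869). Of the hormone receptors, Gfral, the Gdf15 receptor of the hindbrain, had 5 counts over the GB libraries and 0 over the others and was not tested. Klb, the co-receptor of Fgf21, was at 0.295 to 0.748 CPM in young and 0.0352 to 0.0985 CPM in aged vehicle libraries and was not called (edgeR adjusted p = 0.0909). Fgfr1 was at 0.33 with GB (SE 0.13, edgeR adjusted p = 0.0456), a call lost in 6 of 9 fits that left out a library and at -0.24 with library totals. Fgfr4 fell by 0.88 (SE 0.24) with age, a call lost without any 1 of the vehicle libraries (adjusted p of 0.057 to 0.160).

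Markers of other cell types moved with GB beside these results. Adipocyte markers (4 genes) summed to 497 to 618 CPM with GB and 228 to 246 CPM in aged vehicle libraries, and 3 of 4 were called higher. Endothelial markers (5 genes) summed to 199 to 248 CPM and 392 to 418 CPM in the same order, with 4 lower and 1 higher, and macrophage markers (5 genes) to 66.1 to 67.9 and 83.5 to 87.0 CPM, with 3 lower and 1 higher. B and plasma cell markers (5 genes) summed to 65.9 CPM in young replicate 1 and 0.915 to 5.94 CPM in the other 8 libraries, and Xbp1, which plasma cells express strongly, was lowest of its group in young replicate 1. Liver markers (3 genes) were at 1.98 to 5.40 CPM with GB and 0.131 to 0.268 CPM in aged vehicle libraries. Among them Alb, with means of 3.02 and 0.180 CPM in that order, was not called (edgeR adjusted p = 0.204). Fibroblast markers (5 genes) summed to 471 to 582 CPM with GB and 634 to 793 CPM in aged vehicle libraries, T cell markers (4 genes) to 4.86 to 6.93 and 1.16 to 1.78 CPM, and Schwann cell markers (4 genes) to 103 to 167 and 64.9 to 74.5 CPM. Of the T cell markers Cd3e was called higher, with means of 5.31 CPM with GB and 1.07 CPM in aged vehicle libraries. Cd3g (0.248 and 0.0219 CPM) and Cd4 (0.292 and 0.257 CPM) were not called. With age, smooth muscle markers (3 genes) went from 52.2 to 67.3 CPM in young to 210 to 246 CPM in aged vehicle libraries and were at 107 to 147 CPM with GB. Red cell markers (3 genes) were at 203 to 460, 1049 to 1958 and 620 to 730 CPM in the same 3 groups. The part of these markers in the results was not tested.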

How the data were processed

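RNA of 9 gastrocnemius samples was sequenced; per the labels' protocols it was purified with TRIzol and chloroform and made into libraries with a KAPA mRNA kit. The authors deposited whole-number counts for each gene together with its length. FastQC, HISAT2, SAMtools and DESeq2 and the builds GRCm39 and mm10 are named in the submitters' processing notes, without versions or roles. No counter, annotation or strand setting is given in the sources used here. Of 49079 symbols shared with GENCODE M21 (GRCm38), 95.2% had a length equal to its merged exons, the annotation used for overlaps. How reads shared by similar genes were counted is not known.

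Counts were tested with edgeR 4.0.16 (R 4.3.3): filterByExpr (minimum count 10, minimum total 15), TMM factors and 1 quasi-likelihood fit of all 9 libraries with a group mean each and robust=TRUE. P-values were two-sided, adjusted by Benjamini-Hochberg over all 17534 genes and called under 0.05. The SE is the log2 fold change divided by the square root of F. Groups came from the titles. Replicates differed by more than sampling noise. The limit of 3 counts covers counting error only. The fit was tested on simulated data with changes only in aged vehicle against young vehicle. Those data had a fixed dispersion and no shift of composition or gene length. There 21.8% of 1.5-fold, 73% of 2-fold and 95.7% of 4-fold changes were recovered. The simulation does not cover the GB comparisons.

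The members, lists and tests were chosen with earlier results of these data known. Named besides the members were 21 fixed genes and, per list and comparison, up to 3 called genes with the largest change, no overlap of libraries and a mean of 2 CPM or more where higher. Mars1 was named after its values were seen, and 1 gene that the rule names is not reported here. Alternatives were other scalings, filters, DESeq2 1.42.0, limma-voom (limma 3.58.1), a length offset (lowess span 0.3), the replicate number as a block and leaving out each library.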

Additional observations from a re-analysis of the deposited data

How the results depend on the processing

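In aged against young vehicle, the count of members called (1) was 0 with at least 50 counts in 3 libraries or only the 2 groups compared, where Fgf21 was not tested, 0 at an adjusted p under 0.01, and 0 to 1 when a library was left out. The count of pathway genes called with age (10) was 18 with only the 2 groups compared, 19 with DESeq2, 17 with limma-voom, 4 at an adjusted p under 0.01, and 4 to 16 when a library was left out. Over all genes 1508 were called with age, 2410 with DESeq2, 650 at an adjusted p under 0.01 and 749 to 2010 when a library was left out. In aged GB against young vehicle, the count of members called (8) was 5 with library totals and 4 with the length offset. That count was 7 with at least 50 counts in 3 libraries or only the 2 groups compared, and Fgf21 was not tested in either. In aged GB against aged vehicle the count (6) was 4 with library totals, with the length offset and at an adjusted p under 0.01. It was 7, with Chac1 added, with DESeq2, limma-voom, upper-quartile factors, robust=FALSE, only the 2 groups compared and without young vehicle replicate 1. Over all genes 9326 were called with GB against aged vehicle, and 8611 to 9844 under the settings with 7 members. That all-gene count was 10451 with library totals, 8199 with the length offset and 7094 at an adjusted p under 0.01. Against young vehicle 9406 genes were called, 10647 with library totals and 8562 with the length offset. The pathway count with GB against aged vehicle (72) was 57 to 75 over all alternatives. With library totals 2030 genes rose and 8421 fell with GB over all genes, against 4281 and 5045.

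Signs turned in 24 fits of the members and of the other genes named by the rule, none of them called in that fit. With age, leaving out 1 library gave -0.011 to 0.24 for Atf4, -0.059 to 0.20 for Hspa5, -0.017 to 0.26 for Herpud1, -0.16 to 0.17 for Trib3, -0.25 to 0.076 for Asns and -1.65 to 1.01 for Gdf15, and limma-voom gave Gdf15 0.52. The values below 0 for Atf4, Hspa5 and Herpud1 were those without aged vehicle replicate 1. With GB against aged vehicle, library totals gave Asns -0.10, Ppp1r15a -0.014, Calr -0.16, Fgfr1 -0.24, Ube2j1 -0.15, Selenos -0.12 and Ube2g2 -0.062, and the length offset gave Chac1 -0.0018, Fgf21 -0.20 and Selenos -0.20. Leaving out 1 library gave -0.13 to 0.75 for Asns and -0.078 to 1.16 for Fgf21, each lowest without GB replicate 1. Against young vehicle Asns was at -0.21 with library totals and at -0.25 to 0.63 with 1 library left out. The causes were not tested.

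The replicate numbers are only numbers in the titles, and deviations of same-numbered libraries correlated at -0.0756 to 0.0799. With the replicate number as a block, 1, 7 and 8 members and 8, 67 and 70 pathway genes were called with age, with GB against aged vehicle and with GB against young vehicle, in that order. Over all genes 1312, 8958 and 9025 were called with this block, in the same order. Chac1 was then called with GB (0.65, adjusted p = 0.00196), Gdf15 turned to 0.20 with age, and Nfe2l2 and Selenos with age and Fgfr1 with GB were not called. Depth limits Fgf21 and Gdf15, with 0 to 26 counts a library.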

Other observations

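Ddit4, an inhibitor of mTORC1 that Atf4 and glucocorticoids induce, differed widely within groups. Young replicates 1 to 3 had 29.96, 4.65 and 5.196 CPM, aged vehicle replicates 416, 103 and 69.3 CPM, and GB replicates 64.4, 121 and 99.97 CPM. The ages did not overlap, and Ddit4 was not called with age (log2 fold change 3.88, SE 1.08, edgeR adjusted p = 0.0849). Replicate 1 was the highest of its group for Ddit4 at both ages under vehicle and the lowest with GB.

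Aged vehicle replicate 1 also had the highest Ppp1r15a of its group, at 41.4 CPM against 24.7 and 28.5 CPM, and the highest Cebpb, at 117 CPM against 88.6 and 86.9 CPM. Atf3 was 10.3 CPM there, against 7.66 and 5.55 CPM.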
